A study of Mus musculus with 11 samples.

Results

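The replication-dependent histone genes code for the proteins that package newly copied DNA. They were taken here as every mouse gene whose symbol starts with Hist1h, Hist2h, Hist3h or Hist4h. The rule went by name and used no measured value, but it was set with earlier results of these data known. The single-cell features held 67 such genes among 31053, with 54 in the Hist1 cluster, 10 in Hist2, 2 in Hist3 and 1 in Hist4. By the protein they encode, 6 were H1 genes, 18 H2A, 18 H2B, 12 H3 and 13 H4. The bulk table held 36 of them among 29224 lines, and the other 31 are not listed there. The study, on C57BL/6 mice, concerns Sostdc1, a secreted protein that blocks Wnt and BMP signals and is made by some follicular T cells. Values of 3 of its 11 samples were used, each 1 library from draining lymph nodes. The first is labelled as follicular regulatory T (Tfr) cells of mice homozygous for a Sostdc1 knockout (KO), and the second as Tfr cells of wild-type (WT) mice. Both sorts took cells positive for CXCR5 and PD-1, receptors of follicular T cells, with high GITR. The third is a droplet library of activated (CD44-positive) CD4 T cells from mice with 1 copy of a Sostdc1-EGFP reporter allele. The sources used here do not give the age of the mice, any immunisation or how many mice were pooled.

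Core histones H2A, H2B, H3 and H4 form the particle around which DNA is wound, and linker histone H1 binds where the DNA enters and leaves it. Their replication-dependent genes lie in clusters, lack introns in most cases, and are transcribed mainly while DNA is copied in S phase. Most of their mRNAs end in a stem-loop bound by the protein Slbp and carry no poly(A) tail, while some members also yield transcripts with a poly(A) tail. Separate single-copy genes encode replacement variants such as H3f3a and H2afz, which are made outside S phase too. Many members are nearly identical in sequence, and the sources used here do not say how reads that match several of them were assigned, so the values of single members are uncertain.

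The knocked-out gene went against the labels. Sostdc1 stood at 16.5 CPM, a count scaled to the library total, in the library labelled KO, against 0.221 CPM in the library labelled WT. Both libraries expressed Foxp3, the regulatory T cell factor, at 1164 CPM in the library labelled KO, beside 1471 CPM in that labelled WT. Xist, the RNA of the inactive X chromosome, had 34234 counts in the library labelled KO, beside 39 in that labelled WT, and Y-linked Ddx3y had 6 (labelled KO) and 3557 counts (labelled WT), so the genotype label, the sex of the cells and the library cannot be told apart. The library totals were 27777625 counts for the one labelled KO and 18076300 for the one labelled WT. With 1 library per group, no test of genotype was possible, and every interval given is a 95% interval for counting error alone.

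Sequence upstream of the genes was taken from RefSeq on build GRCm38.p6, where 66 of the 67 members matched 1 gene and 61 had a promoter entry. Of the matched members, 53 lie on chromosome 13, 10 on chromosome 3, 2 on chromosome 11 and 1 on chromosome 6. In 9 pairs an H2A gene and an H2B gene pointed away from each other with starts 164 to 281 bases apart. The 250 bases before each start were searched on both strands for 4 motifs, namely the TATA box with the letters TATAAA, the CCAAT box that carries its own letters, the octamer of the letters ATTTGCAT, and an H1 box spelled AAACACA, each counted once per promoter and independently of the others. CCAAT was in 50 of 61 members (82.0%), against 34.5% of all 27025 promoters, and in H4 genes it was in 3 of 12. TATAAA was in 29 of 61 members (47.5%), against 13.0% of all promoters. The octamer was in 13 of 61 (21.3%), against 1.61% of all promoters; these were 7 H2A and 6 H2B genes and no gene of another class. The H1 box was in 5 of 6 H1 genes and in 14.8% of members, against 6.22% of all promoters. The windows of the 9 pairs overlapped, so 1 stretch could count for both genes of a pair. The octamer was in both genes of the pairs Hist1h2aa and Hist1h2ba, Hist1h2ae and Hist1h2bg, and Hist1h2ah and Hist1h2bk. All these counts are matches of letters and no evidence of binding. The 5 stretches below, with the motifs in capitals, stand for the members on which the results turn. Hist1h1b had the most single-cell molecules, and its line is the 200 bases before its start on the minus strand, chr13:21780626-21780825. The second line is the 179 bases between the starts of the divergent pair Hist1h2ae and Hist1h2bg, read on the plus strand towards Hist1h2bg, chr13:23571221-23571399. Hist1h4d (chr13:23581368-23581567, plus strand) and Hist1h4i (chr13:22041363-22041562, minus strand) had the most molecules among H4 genes, and Hist3h2a (chr11:58954485-58954684, plus strand) had the lowest ratio between cycling and other cells.
Hist1h1b: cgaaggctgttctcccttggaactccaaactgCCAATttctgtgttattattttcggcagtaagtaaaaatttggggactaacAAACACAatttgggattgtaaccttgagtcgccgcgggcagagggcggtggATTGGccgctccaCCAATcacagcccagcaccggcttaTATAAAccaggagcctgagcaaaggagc
Hist1h2ae to Hist1h2bg: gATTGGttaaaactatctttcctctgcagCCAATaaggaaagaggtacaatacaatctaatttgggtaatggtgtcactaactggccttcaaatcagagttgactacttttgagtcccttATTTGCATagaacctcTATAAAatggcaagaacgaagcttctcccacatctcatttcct
Hist1h4d: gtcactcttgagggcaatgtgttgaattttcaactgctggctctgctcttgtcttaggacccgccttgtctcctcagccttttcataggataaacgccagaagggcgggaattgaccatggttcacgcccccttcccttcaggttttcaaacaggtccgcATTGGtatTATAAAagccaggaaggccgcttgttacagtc
Hist1h4i: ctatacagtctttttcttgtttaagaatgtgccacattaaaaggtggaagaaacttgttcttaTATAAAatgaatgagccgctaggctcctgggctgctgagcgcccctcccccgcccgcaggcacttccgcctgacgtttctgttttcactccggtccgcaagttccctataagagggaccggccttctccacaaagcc
Hist3h2a: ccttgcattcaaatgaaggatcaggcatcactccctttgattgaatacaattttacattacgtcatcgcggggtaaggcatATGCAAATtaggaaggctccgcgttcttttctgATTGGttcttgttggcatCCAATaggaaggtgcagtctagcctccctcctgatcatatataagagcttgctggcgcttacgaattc

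Histone RNA in the single-cell library was concentrated in cycling cells. Cells were placed by how many of 4 cell-cycle genes they held at least 1 molecule of, namely Mki67 (proliferation antigen Ki-67), Top2a (DNA topoisomerase), Birc5 (survivin, a mitotic regulator) and Cdk1 (the mitotic kinase). Of 15002 barcodes, 12831 cells were kept, with 740 to 78924 unique molecular identifiers (UMIs, each standing for 1 captured RNA molecule) and a median of 5959. There were 9118 cells with 0 markers, 2306 with 1, 428 with 2, 229 with 3 and 750 with 4. Summed over members, histone UMIs made up 420 CPM, here UMIs scaled to the UMI total, at 0 markers, 440 at 1, 664 at 2, 1648 at 3 and 8391 at 4. The step between 0 and 1 marker was small and most of the difference lay between 2 and 4. Cells with 4 markers thus held 19.97 times the histone level of cells with 0 markers (19.7 to 20.3). They were 5.85% of the cells and held 79.8% of all histone UMIs, with a median of 199 histone UMIs per cell, against 2 in cells with 0 markers.

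Detection of any histone UMI was less informative than the level. Every cell with 4 markers had one, as did 86.7% of cells with 0 markers. Median depth was 21164.5 UMIs in cells with 4 markers and 5607 in cells with 0 markers. After each cell was thinned to 3000 UMIs, with the marker number kept and shallower cells left out (2 with 4 markers and 826 with 0), 96.4% of cells with 4 markers and 69.2% of cells with 0 markers still had one, at 9359 CPM (4 markers) and 435.5 CPM (0 markers). No cell type lacks histone genes, so free RNA in the droplets could not be set apart as a baseline, and its part was not tested. The mixture of classes differed between the cells: H2A was 34.2% of histone UMIs at 4 markers and 17.6% at 0, and H4 was 11.2% at 4 markers and 25.3% at 0. H1 was 39.6% at 4 markers and 39.7% at 0.

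**Figure D1:**
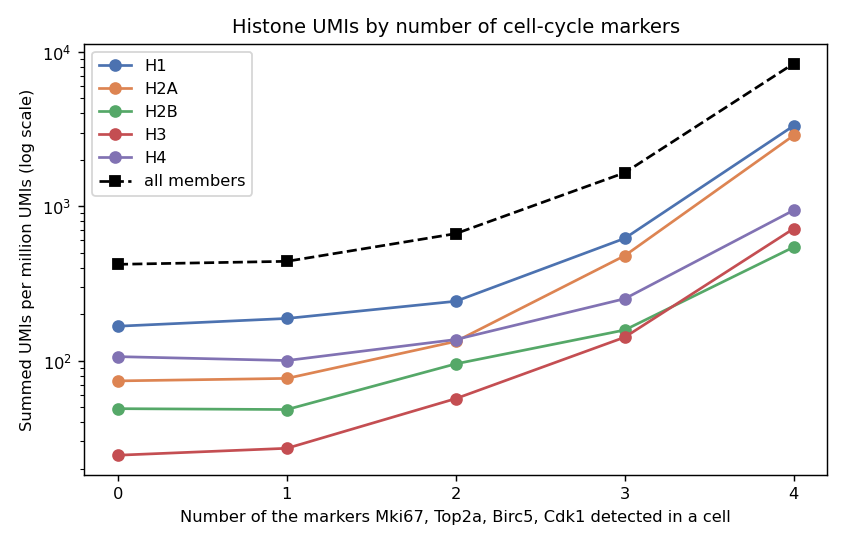
Summed UMIs of each histone class and of all members, as CPM on a log scale, in cells grouped by how many of Mki67, Top2a, Birc5 and Cdk1 were detected. All lines are nearly level between 0 and 1 marker and climb to 4, where all members together reach 8391 CPM.

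Of 67 members, 62 had at least 1 UMI in the kept cells and 59 had at least 50. The 5 at 0 were Hist1h1t, Hist1h2aa and Hist1h2ba, which are known as testis histone genes, and Hist1h2bq and Hist2h2aa2, whose sequences are shared with near copies. Among the 59, 54 were at least 2-fold higher in cells with 4 markers than in cells with 0, where 12.5% of 12211 genes measured to the same depth were. At least 10-fold higher were 41 of the 59, against 2.20% of all genes. None of the 59 was 2-fold lower or more, against 17.2% of all genes. The median fold was 19.0 for the members and 0.93 for all genes. All 48 members of Hist1 were at least 2-fold higher, as were 6 of 8 in Hist2, 0 of 2 in Hist3 and 0 of 1 in Hist4.

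Linker histones gave the largest single contribution. Hist1h1b, the linker histone H1.5, held 39687 UMIs or 20.8% of all histone UMIs. Its level was 17.9 CPM at 0 markers, 24.7 at 1, 69.3 at 2, 299 at 3 and 2043 at 4, a 114-fold difference between 4 and 0 markers (107 to 122). It was found in 92.5% of cells with 4 markers and in 9.56% of cells with 0. Hist1h1e, linker histone H1.4, was found in as many cycling cells (92.3%) but also in 36.4% of cells with 0 markers, and its level was 807 CPM at 4 markers and 91.3 CPM at 0, an 8.84-fold difference. Hist1h1c, linker histone H1.2, was still less tied to the markers, at 197 CPM with 4 markers and 47.9 CPM with 0, or 4.11-fold. Hist1h1d (H1.3) was 23.4-fold and Hist1h1a (H1.1) 49.0-fold higher at 4 markers. The linker genes therefore spanned a wide range of folds while sharing 1 cluster.

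H2A genes had the steepest class difference, at 2873 CPM with 4 markers and 73.9 CPM with 0, or 38.9-fold (37.7 to 40.2). Hist1h2ae held 963 CPM at 4 markers and 11.7 CPM at 0. Hist1h2ap held 851 CPM (4 markers) and 7.80 CPM (0 markers), Hist1h2ab 394 CPM (4 markers) and 3.79 CPM (0 markers), and Hist1h2an 162 CPM (4 markers) and 1.69 CPM (0 markers). All of these lay between 82.2-fold and 109-fold. All were low in cells with 0 markers, though Hist1h2ae was still found in 6.76% of those cells. Hist2h2ac, an H2A gene of the chromosome 3 cluster, had 291 CPM at 4 markers and 19.7 CPM at 0, or 14.8-fold. The highest ratios of any member with at least 50 UMIs belonged to Hist1h2af at 180-fold (112 to 311) and Hist1h3b at 171-fold (110 to 281), and both rest on low counts in cells with 0 markers.

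H2B genes were lower as a class, at 543 CPM with 4 markers and 48.8 CPM with 0, or 11.1-fold. Hist1h2bj led them, at 126 CPM with 4 markers and 2.59 CPM with 0 (48.7-fold). Hist1h2be had 65.3 CPM (4 markers) and 9.77 CPM (0 markers) (6.68-fold), and Hist2h2bb 70.2 CPM (4 markers) and 3.70 CPM (0 markers) (19.0-fold). In the printed divergent pair, both sides were higher in cycling cells, but Hist1h2ae was captured as 18957 UMIs and Hist1h2bg as 487. The UMI counts are of captured 3′ ends and are not scaled by length.

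H3 genes stood at 715 CPM with 4 markers and 24.4 CPM with 0, or 29.3-fold (27.7 to 31.1). Hist1h3c had 236 CPM at 4 markers and 2.36 CPM at 0, a 100-fold difference, while Hist1h3e had 195 CPM (4 markers) and 11.0 CPM (0 markers) (17.8-fold) and Hist1h3f 104 CPM (4 markers) and 4.61 CPM (0 markers) (22.5-fold). H4 genes had the smallest class difference, at 942 CPM with 4 markers and 106 CPM with 0, or 8.87-fold (8.61 to 9.14). Hist1h4d made up most of it, at 715 CPM with 4 markers and 69.0 CPM with 0 (10.4-fold), and it was found in 32.3% of cells with 0 markers. Hist1h4i had 85.1 CPM (4 markers) and 8.47 CPM (0 markers) (10.1-fold) and Hist1h4h 76.2 CPM (4 markers) and 8.65 CPM (0 markers) (8.80-fold). No H4 gene with at least 50 UMIs reached 20-fold; the highest was Hist1h4f at 19.3-fold (8.08 to 55.8), on 52 UMIs.

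A small set outside the main cluster behaved differently; all but Hist3h2a were named with their values already known. Hist3h2a, an H2A gene on chromosome 11, had 8.49 CPM at 4 markers and 16.9 CPM at 0, or 1.99-fold lower in cycling cells (1.68 to 2.38). Hist2h4 had 6.40 CPM at 4 markers and 8.27 CPM at 0, a ratio of 0.774 (0.625 to 0.951). Hist3h2ba had 15.8 CPM (4 markers) and 14.1 CPM (0 markers), a ratio of 1.12 with an interval of 0.974 to 1.28 that includes 1. Hist2h2be had 2.87 CPM (4 markers) and 2.07 CPM (0 markers), a ratio of 1.39 (0.979 to 1.94), and Hist4h4 4.41 CPM (4 markers) and 2.83 CPM (0 markers), a ratio of 1.56 (1.18 to 2.06). These 5 were the members with at least 50 UMIs that did not reach 2-fold. Within Hist1, the weakest was Hist1h2bc, at 28.6 CPM with 4 markers and 9.57 CPM with 0 (2.98-fold).

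**Figure D2:**
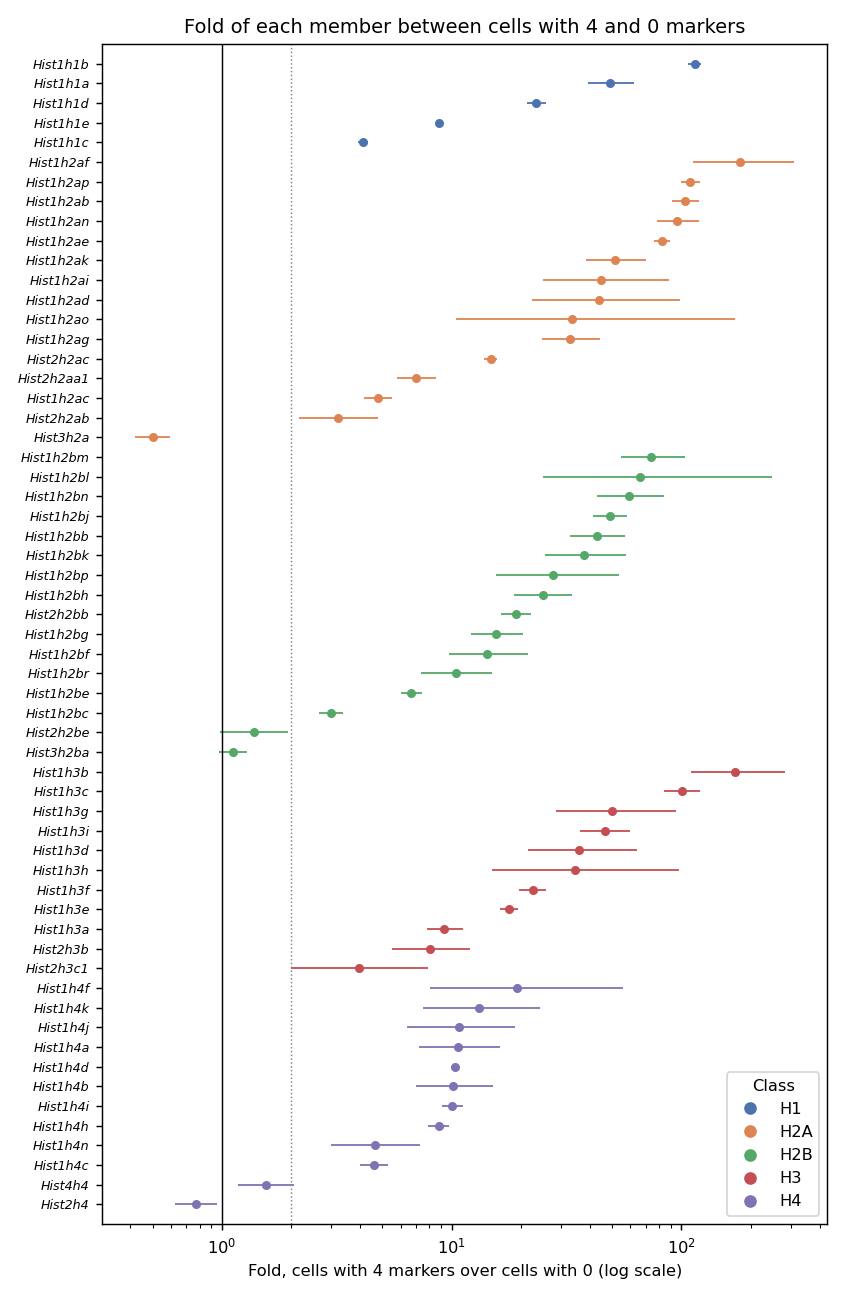
Fold of each of the 59 members with at least 50 UMIs between cells with 4 and with 0 cell-cycle markers, with exact 95% intervals for counting error, on a log axis. Points are coloured by class, the solid line marks 1 and the dotted line 2; Hist3h2a and Hist2h4 are the points left of 1.

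Among the 750 cells with 4 markers, histone levels were spread over a wide range with few cells in the middle. The lowest cell had 48.5 CPM, the lower quartile was 1423, the median 9720, the upper quartile 14730 and the highest cell 39430 CPM. From 400 to 800 CPM there were 84 of these cells and from 800 to 1600 another 84, but from 1600 to 3200 there were 28, and then 199 from 6400 to 12800 and 254 from 12800 to 25600. Of the 750, 165 (22.0%) were at or under 1179 CPM, the 95th percentile of cells with 0 markers, whose median was 374 CPM. These cells held all 4 markers at a histone level of the non-cycling range. Members moved together from cell to cell: within these 750 cells, the level of Hist1h2ab had a Spearman correlation of 0.90 with the sum of all other members, as did Hist1h4d, while Hist1h1e had 0.89, Hist1h4i 0.32, Hist3h2a 0.08 and Hist2h2be 0.05. These cells share 1 library, and low values of rare members are limited by sparse counts.

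The same 750 cells were ranked and split into 3 equal groups of 250 by each of 2 lists of 30 genes each, 1 of S phase genes (such as Mcm3 and Pcna of the replication machinery) and 1 of G2 and M phase genes (such as Ccnb2 and Cdc20 of mitotic entry and exit). By the G2M list, histone levels were 5638 CPM in the low group, 8586 in the middle and 11740 in the high group. By the S list they were 8371, 8249 and 8566 CPM, which is nearly flat. This sum joined members of opposite course. Hist1h1b, with the most UMIs, rose along the S list, at 1652, 2000 and 2433 CPM. Hist1h4d fell, at 815, 717 and 624 CPM. The lists themselves ran against each other across these cells, with a Spearman correlation of −0.58. The lowest of the 9 combinations was low in both lists, at 3249 CPM in 27 cells, and the highest was middle in S and high in G2M, at 14450 CPM in 71 cells. Of 59 members, 57 were higher in the high than in the low G2M group, where 51.0% of 12211 genes were. The exceptions were Hist1h1a, at 69.5 CPM in the low, 92.4 in the middle and 52.6 in the high G2M group, and Hist1h3a, at 28.9 CPM in the low and 23.9 in the high group. Hist1h1a was instead ordered by the S list, at 33.0, 66.2 and 115 CPM from the low to the high group, and Hist1h3a at 17.3, 26.8 and 36.3 CPM. In all, 14 of 59 members were higher in the high than in the low S group, where 45.8% of genes were.

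**Figure D3:**
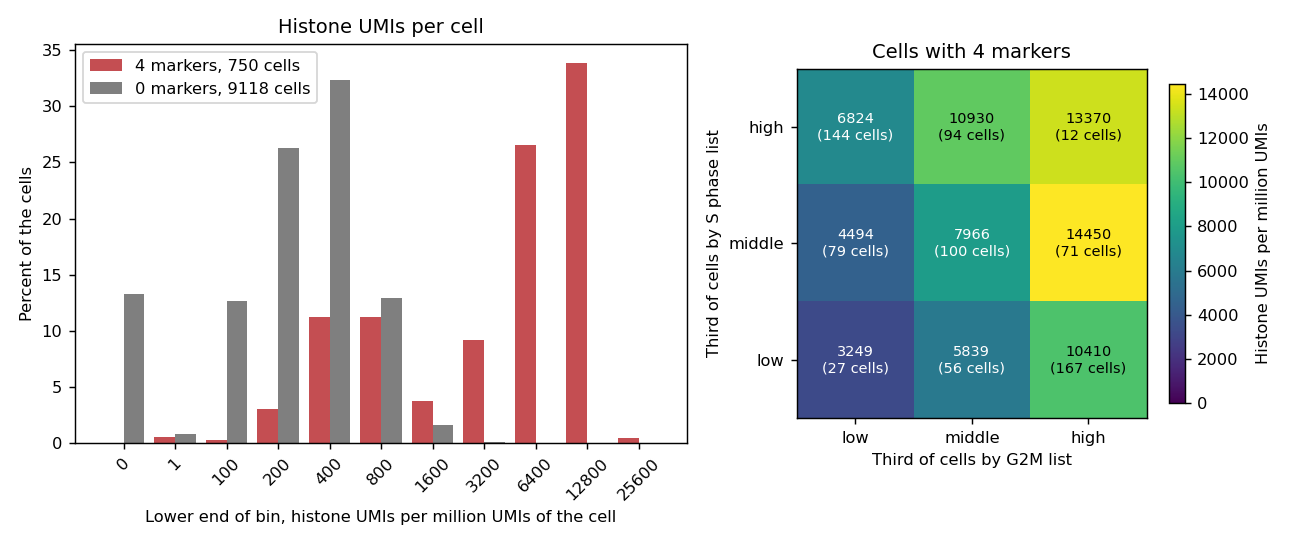
Left, percent of cells with 4 and with 0 markers by histone level (CPM), in bins of unequal width named by their lower end; the 4-marker cells fall into 2 groups of bins separated by a low at 1600. Right, summed histone UMIs (CPM) in cells with 4 markers, by group of the S phase and G2M lists, from 3249 at low and low to 14450 at middle S and high G2M.

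Other cell-cycle genes divided the 750 cells further when they were ordered by histone level into 4 groups of 187 or 188 cells. Cdc6, which loads the replicative helicase before S phase, was at 47.7 and 53.2 CPM in the 2 lower groups and at 22.3 and 15.6 CPM in the 2 higher ones. Ccne2, a cyclin of S phase entry, followed the same order, at 40.5, 44.3, 24.6 and 22.3 CPM. Top2a was at 398, 661, 1123 and 1413 CPM from the lowest to the highest group, and H2afx, the H2A variant marked at DNA breaks, at 255, 266, 524 and 657 CPM. Cdc20, which drives exit from mitosis, was at 266, 133, 166 and 190 CPM, and Ccnb2, a mitotic cyclin, stood at 322, 164, 219 and 287 CPM. Both were highest in the group with the least histone RNA, although the whole G2M list stood at 10080, 7905, 11330 and 13930 CPM. Slbp, the stem-loop binding protein, varied little, from 207 to 271 CPM. These genes were chosen after values were seen, and Top2a was also used to place the cells.

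At equal marker numbers, T cells with and without Foxp3 had close histone levels. T cells were gated by CD3, TCR and CD4 transcripts with thresholds set after the data were seen. T cells with a Foxp3 UMI and 4 markers had 8523 CPM (323 cells), and those without Foxp3 had 8643 CPM (365 cells), a ratio of 0.986 (0.976 to 0.996). At 0 markers the levels were 409.9 CPM with Foxp3 and 412.9 CPM without, a ratio of 0.993 (0.959 to 1.03). Over all marker numbers, however, the T cells with Foxp3 had 3094 CPM and those without 1601 CPM, beside 4-marker shares of 12.4% with Foxp3 and 4.05% without. Foxp3-negative T cells with Cxcr5 and Pdcd1, the markers of follicular helper cells, had 9420 CPM at 4 markers (72 cells) and 379 CPM at 0. Other cells of the sort were few: at 4 markers, plasma-gated cells had 6262 CPM (39 cells), B-gated cells 6912 CPM (10 cells) and myeloid-gated cells 5654 CPM (11 cells).

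Genes that work with the histones were higher in cycling cells to very different degrees. Among all 12211 genes with at least 50 UMIs, 12.5% were at least 2-fold higher at 4 markers and 17.2% at least 2-fold lower. Of the factors that make and process histone mRNA, 10 of 29 measured were at least 2-fold higher at 4 markers and none 2-fold lower. Slbp was at 245 CPM with 4 markers and 49.1 CPM with 0 (4.99-fold), and Npat, the coactivator of histone transcription, at 21.1 CPM (4 markers) and 13.1 CPM (0 markers) (1.61-fold). Lsm10, a subunit of the U7 particle that cuts histone pre-mRNA, was at 26.5 CPM (4 markers) and 33.6 CPM (0 markers) (0.789-fold). Of histone chaperones, 13 of 20 were at least 2-fold higher. Chaf1a, of the complex that deposits H3 and H4 behind the replication fork, was 37.9-fold higher, and Asf1b, which carries new H3 and H4, 31.0-fold higher. Of variant histones, 6 of 10 were at least 2-fold higher, with H2afx at 10.3-fold and H2afz at 7.34-fold, while H3f3a and H3f3b, which encode replacement histone H3.3, were at 1.38-fold (H3f3a) and 1.31-fold (H3f3b). The 2 phase lists were higher almost throughout, at 30 of 30 S phase genes and 29 of 30 G2M genes (Smc4, of the condensin complex, was the exception), which belong to the same phases as the markers that placed the cells.

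In the bulk Tfr libraries, histone counts were few and lower in the library labelled KO. All 36 listed members together had 384 counts or 13.8 CPM in the library labelled KO, against 552 counts or 30.5 CPM in that labelled WT. The ratio was 0.453 (0.396 to 0.517), or 2.21-fold lower in the library labelled KO. A lower CPM in the library labelled KO was seen for 29 of 36 members, where 59.8% of all genes in the table had one. Of the 36, 10 had no count in the library labelled KO, whose limit of 3 counts is 0.108 CPM, and none was at 0 in the library labelled WT. Of all 29211 genes, 873 were at 0 in the library labelled KO and 904 in that labelled WT. With TMM scaling the sum was 1.99-fold lower. In bulk RNA, fewer cells that make histone RNA and less histone RNA per cell cannot be told apart. Beside the histone sum, the ratio was 0.985 for Mki67, 1.05 for Top2a, 1.05 for Birc5 and 1.44 for Cdk1. It was 1.14 for the summed S phase list and 0.984 for the summed G2M list. The cause of the histone difference was not tested.

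Only 7 members reached 1 CPM in at least 1 library, and 4 of these passed through the library labelled WT alone, so they had to differ. Of the 7, 4 were at least 2-fold lower in the library labelled KO on the log2(CPM + 1) scale, where 8.78% of 14082 genes were, and none was 2-fold higher, where 2.45% of genes were. With TMM scaling 3 members were 2-fold lower. The 4 were the same genes that passed through the library labelled WT alone. With at least 10 counts in both libraries together, 22 members remained. Of these, 13 had a CPM ratio of 0.5 or less, against 21.2% of 20896 genes. None of the 22 had a ratio of 2 or more. Among the 13, only Hist1h4i had at least 10 counts in the library labelled KO, with 27, beside 87 in that labelled WT. Most of the others passed the limit through the library labelled WT alone, so the filter itself bears on this share. On the log2(CPM + 1) scale, 4 of the 22 were at least 2-fold lower and 0 at least 2-fold higher, beside 5.92% and 1.65% of those genes. Genes of low level had similar shares: of 5068 genes with 1 to 10 CPM in the higher library, 9.14% were 2-fold lower and 2.64% 2-fold higher. The median log2 ratio was −0.45 for the 22, against −0.10 for all genes passing the same limit and −0.22 for the genes with 1 to 10 CPM.

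H3 genes had the largest class difference, with 8 counts or 0.288 CPM in the library labelled KO, beside 71 counts or 3.93 CPM in that labelled WT, which is 13.6-fold lower (6.56 to 32.8). Hist1h3c had 2 counts in the library labelled KO, beside 27 in that labelled WT (0.072 CPM labelled KO and 1.49 CPM labelled WT), a ratio of 0.0482 (0.00556 to 0.192). Hist1h3h had 0 counts in the library labelled KO, against 19 in that labelled WT, at least 9.73-fold lower when the 3-count limit is set for the library labelled KO and the other count is taken as exact; the exact interval, which covers counting error in both, begins at 7.17-fold. H4 genes were 4.96-fold lower (3.58 to 6.98), at 1.76 CPM in the library labelled KO, beside 8.74 CPM in that labelled WT. Hist1h4i, with the most counts among them, had 27 in the library labelled KO, beside 87 in that labelled WT (0.972 CPM labelled KO and 4.81 CPM labelled WT), or 4.95-fold lower (3.18 to 7.93). Hist1h4d had 2 (labelled KO) and 18 counts (labelled WT), and Hist1h4h 0 (labelled KO) and 15 (labelled WT).

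H2A genes were 2.83-fold lower in the library labelled KO, at 1.15 CPM, against 3.26 CPM in the library labelled WT, but their members ran both ways. Hist1h2ao had 0 counts in the library labelled KO, beside 24 in that labelled WT, at least 12.3-fold lower by the 3-count limit, with an exact interval that begins at 9.25-fold. Hist1h2ap had 0 (labelled KO) and 12 counts (labelled WT), at least 6.15-fold lower by that limit, with an interval that begins at 4.27-fold. Hist3h2a instead had 29 counts in the library labelled KO, beside 10 in that labelled WT (1.04 CPM labelled KO and 0.553 CPM labelled WT), a ratio of 1.89 whose interval of 0.894 to 4.34 includes 1. H2B genes were 1.68-fold lower, at 4.28 CPM in the library labelled KO, beside 7.19 CPM in that labelled WT. More than any other H2B gene, Hist2h2be carried that class, with 64 counts or 2.30 CPM (labelled KO) and 38 counts or 2.102 CPM (labelled WT), a ratio of 1.10 (0.723 to 1.68). Hist1h2bc had 23 (labelled KO) and 16 counts (labelled WT), and Hist1h2be 7 (labelled KO) and 4 (labelled WT), neither separated from an equal level.

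H1 genes were close to level, at 6.34 CPM in the library labelled KO, beside 7.41 CPM in that labelled WT, a ratio of 0.855 with an interval of 0.679 to 1.08. Hist1h1c made up most of the class, with 144 counts in the library labelled KO, beside 109 in that labelled WT (5.18 CPM labelled KO and 6.03 CPM labelled WT), a ratio of 0.860 (0.666 to 1.11). Hist1h1e had 13 (labelled KO) and 5 counts (labelled WT) and Hist2h4, an H4 gene, 10 (labelled KO) and 6 (labelled WT). By cluster, the Hist1 genes were 2.74-fold lower (2.35 to 3.20) in the library labelled KO. Hist2 stood at 2.81 CPM in the library labelled KO, beside 2.99 CPM in that labelled WT, a ratio of 0.940, or 1.045 with TMM scaling. Hist3 stood at 1.48 (labelled KO) and 1.38 CPM (labelled WT).

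**Figure D4:**
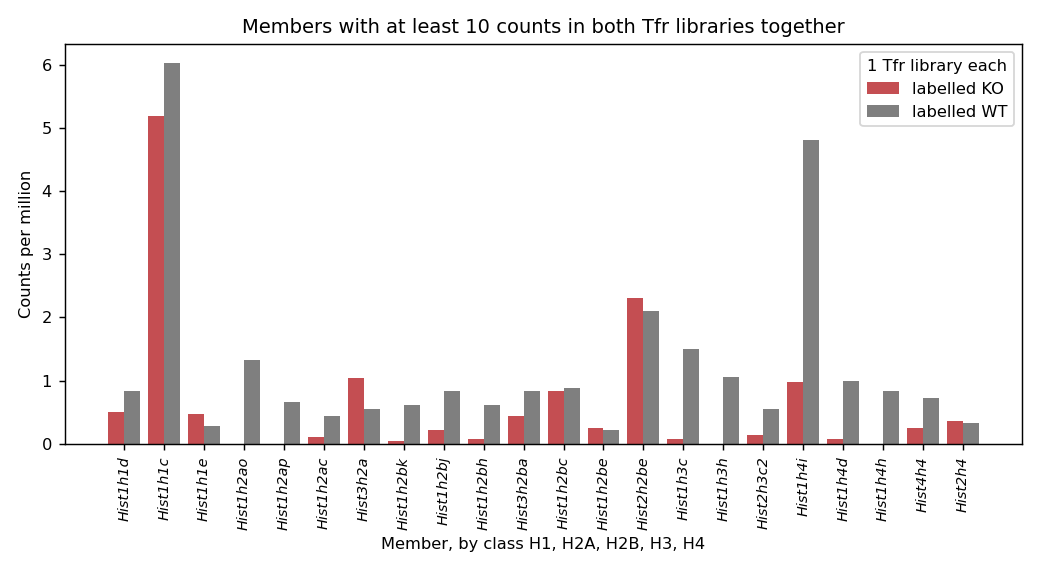
CPM of the 22 members with at least 10 counts in both Tfr libraries together, in the library labelled KO (left bar) and the library labelled WT (right bar), 1 library each and no error bars. Hist1h1c and Hist2h2be have bars of similar height, while Hist1h4i, the H3 genes and Hist1h2ao are higher in the library labelled WT.

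The cell-cycle genes did not differ between these libraries in the way the histones did. Mki67 was at 367 CPM in the library labelled KO, beside 373 CPM in that labelled WT, Top2a at 272 (labelled KO) and 258 CPM (labelled WT), Birc5 at 23.3 (labelled KO) and 22.1 CPM (labelled WT) and Cdk1 at 29.95 (labelled KO) and 20.9 CPM (labelled WT). On the log2(CPM + 1) scale, none of 30 S phase genes and none of 30 G2M genes was 2-fold higher or lower, with medians of 0.11 for the S phase and 0.03 for the G2M list. By the CPM ratio, 1 S phase gene was at 0.5 or less: Fen1, which trims the fragments of the lagging strand, at 0.432 (labelled KO) and 1.494 CPM (labelled WT), a ratio of 0.289. The highest S phase ratios were those of Pola1, a subunit of the priming polymerase, at 34.9 CPM in the library labelled KO, beside 22.1 CPM in that labelled WT, and of Tyms, which makes thymidylate for DNA, at 25.1 (labelled KO) and 17.9 CPM (labelled WT). In the G2M list the ratios farthest from 1 were those of Cks2, which binds Cdk kinases, at 34.8 (labelled KO) and 19.97 CPM (labelled WT), and of Tmpo, a nuclear membrane protein, at 161 (labelled KO) and 267 CPM (labelled WT).

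Of the genes that work with the histones or replace them, few passed 2-fold between these libraries. Among all 14082 genes with at least 1 CPM in 1 library, 8.78% were 2-fold lower in the library labelled KO and 2.45% 2-fold higher. Slbp was at 56.4 CPM in the library labelled KO, beside 57.7 CPM in that labelled WT, and Npat at 68.5 (labelled KO) and 55.4 CPM (labelled WT). Of 28 processing genes with at least 1 CPM, 1 was 2-fold higher, Snrpg at 70.2 (labelled KO) and 31.3 CPM (labelled WT), and 1 was 2-fold lower, Snrpb at 99.3 (labelled KO) and 207 CPM (labelled WT); both encode proteins of the ring shared by spliceosomal particles and U7. None of 20 chaperones passed 2-fold, and the largest ratio was that of Hat1, which acetylates new H4, at 90.04 CPM in the library labelled KO, beside 53.4 CPM in that labelled WT. Of 10 variant histones with at least 1 CPM, 2 were 2-fold lower and none higher: H2afz at 207 CPM in the library labelled KO, beside 512 CPM in that labelled WT, and H2afj at 8.68 (labelled KO) and 22.5 CPM (labelled WT). As a list, 10 of 11 measured variant genes had a lower CPM in the library labelled KO, where 59.8% of all genes had one. Their summed ratio was 0.699, and the median log2 ratio of the 10 with at least 1 CPM was −0.46. H3f3a, an H3.3 gene and the exception, was at 72.1 (labelled KO) and 57.1 CPM (labelled WT), and H3f3b at 622 (labelled KO) and 717 CPM (labelled WT).

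Gene length and other technical features were set beside these values. Histone genes are short, with a median RefSeq span of 492.5 bases. Across the measured protein-coding genes other than the members, the share at least 2-fold lower in the library labelled KO was 28.6% of 35 genes spanning under 1000 bases, 23.1% of 169 genes from 1000 to 2000, and 4.67% of 1521 genes of 100000 or more. These genes had at least 1 CPM in 1 library. Their median log2 ratio was −0.59 under 1000 bases, −0.41 from 1000 to 2000 and −0.13 for 100000 or more. With the same limit it was −1.04 for 7 histone members, of which 4 passed through the library labelled WT alone. With at least 10 counts it was −0.45 for 22 members, most of them under 1 CPM in both libraries. Rn7sk, an RNA without a poly(A) tail, was at 6.41 CPM in the library labelled KO, beside 5.15 CPM in that labelled WT. Summed markers of T cells were at 2039 CPM in the library labelled KO, beside 1454 CPM in that labelled WT, of B cells at 10.8 (labelled KO) and 12.4 CPM (labelled WT), of myeloid cells at 70.9 (labelled KO) and 64.0 CPM (labelled WT), of plasma cells at 241 (labelled KO) and 154 CPM (labelled WT), mostly Xbp1, and of CD8 and NK cells at 13.9 (labelled KO) and 11.0 CPM (labelled WT). Haemoglobin genes were at 0 in the library labelled KO, beside 1.94 CPM in that labelled WT. The part of gene length and of other cells in the histone difference was not tested.

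Set side by side, the summed bulk ratio differed between groups of members split by their fold in single cells. The limits of 5-fold and 20-fold were set after the values were seen. The 10 listed members under 5-fold in single cells had 10.6 CPM in the library labelled KO, beside 12.6 CPM in that labelled WT, a ratio of 0.840 (0.704 to 1.003). Most of these counts came from Hist1h1c and Hist2h2be. Singly, 7 of the 10 had a lower CPM in the library labelled KO and 3 a higher one, where 59.8% of all genes had a lower one. The 9 members from 5-fold to 20-fold had 1.84 (labelled KO) and 8.30 CPM (labelled WT), a ratio of 0.221 (0.158 to 0.306). Singly, 6 of these 9 had a lower CPM in the library labelled KO and 3 a higher one. Hist1h4i alone gave 27 of their 51 counts (labelled KO) and 87 of their 150 (labelled WT). The 16 members of at least 20-fold had 1.30 (labelled KO) and 9.13 CPM (labelled WT), a ratio of 0.142 (0.0961 to 0.205). Of these 16, 15 had a lower CPM in the library labelled KO and 1 a higher one. Across the 21 members with enough counts in both assays, the Spearman correlation of the single-cell fold with the bulk log2 ratio was −0.69, given as a description of genes that share libraries and sequence. Of 13 members of at least 5-fold in single cells, 10 had a lower bulk log2 ratio than any of the 8 members under 5-fold, whose lowest was −0.46. The others were Hist1h1e, Hist1h2be and Hist1h1d. Their bulk log2 ratios were 0.20, 0.04 and −0.28, beside single-cell folds of 8.84, 6.68 and 23.4. By the CPM ratio, without the pseudocount, the order was less clear. Hist1h2ac, under 5-fold, was at 0.244, below Hist1h2bj (48.7-fold) at 0.260. Other members under 5-fold ran from Hist4h4 at 0.350 to Hist3h2a at 1.89.

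**Figure D5:**
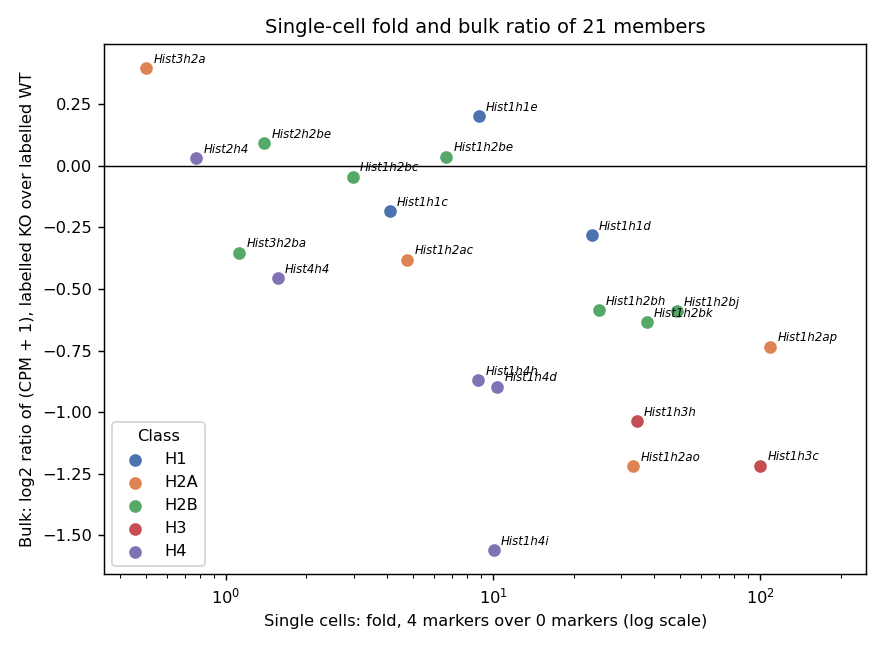
Fold between cells with 4 and 0 markers in the single-cell library (log axis) and log2 ratio of CPM + 1 between the Tfr libraries labelled KO and WT, for 21 members with at least 10 bulk counts and 50 UMIs, coloured by class. Members near or under 1 on the horizontal axis lie around or above −0.5, and Hist1h4i is lowest at −1.56.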

How the data were processed

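RNA was measured in sorted mouse T cells. The 3 libraries used have 1 sample per group; 8 others were not analysed here. According to the protocols, per the labels, bulk libraries came from Trizol RNA with the NEBNext Ultra kit and the single-cell library from version 2 of the 10x Genomics 3′ kit. The sources used here do not say whether poly(A) RNA was selected for the bulk libraries. Per the submitters' processing notes, the tools named include Cell Ranger 2.1.0, Seurat 2, TopHat and Cufflinks, on builds mm9 and mm10, without roles. Per the file headers, Cell Ranger 3.1.0 wrote the matrix. The sources used here name no counter or strand setting for the bulk table.

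The authors' deposited bulk table gives whole-number counts per gene, and the deposited matrix gives UMI counts. The bulk table's deposited normalized values, which match CPM, and its ratio or fold, log2 fold change and p-values were not used. In the authors' deposited table, 20 of the 36 members are marked significant, all down, beside 1682 up and 4980 down of 29224 lines; these marks come from 1 library per group.

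CPM (counts per 1000000 of the library total) were computed from the counts and library totals. Log2 ratios used a pseudocount of 1 CPM. Calls used a size of 2-fold among genes with at least 1 CPM in 1 library or at least 10 counts in both. Ratios carry exact conditional binomial intervals, sums of UMIs exact Poisson intervals and shares Clopper-Pearson intervals, all 95%; bulk reads carry no molecular identifiers, so they are not independent molecules. For 13 symbols on more than 1 line, none a member, the line with the highest mean was used. Barcodes with under 500 genes (835) or at least 10% mitochondrial UMIs (977) were left out, as were 359 cells with at least 3 UMIs each of B and of T cell genes, as likely doublets. Members of fewer than 50 UMIs were not given a fold call. Promoter sequences and spans came from RefSeq tables of GRCm38.p6. The size and interval calculations were tested on simulated data for genes at higher levels than nearly all members had in bulk. They were not tested at the low levels of those members. Python 3.11.15, scipy 1.17.1, scikit-learn 1.9.0 and edgeR 4.0.16 (TMM factors only) were used.

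Members with at least 1 CPM in 1 bulk library, the 6 highest and 6 lowest bulk ratios, the 20 members with the most UMIs and the 3 with the most per class were named, with others where stated. The members and gene lists were chosen with earlier results of these data known. Alternatives covered TMM scaling, pseudocounts, level filters, cell filters, doublet removal and thinning.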

Additional observations from a re-analysis of the deposited data

Results flagged for a closer look

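Histone UMIs also appeared in barcodes left out of the comparisons. Barcodes with at least 10% mitochondrial UMIs, 977 in number, held 1171 CPM of histone UMIs, and 27 of them had all 4 markers. The 835 barcodes with under 500 genes held 959 CPM, and none had all 4 markers. The 359 cells that held both B and T cell genes had 2982 CPM, and 68 of them had all 4 markers. All of these stood above the 420 CPM of kept cells with 0 markers and below the 8391 CPM of cells with 4.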

How the results depend on the processing

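No paired analysis was possible because each group used has 1 sample, and for the same reason no replicate could be left out. The 19.97-fold single-cell difference was 27.9-fold with each cell thinned to 3000 UMIs before markers were counted, 15.8-fold without Hist1h1b, 20.8-fold in T cells alone, 20.5-fold with the 10% of cells with the highest simulated-doublet scores removed and 19.7-fold with mixed B and T cells kept; at least 200 genes or under 5% mitochondrial UMIs left it within its interval. Thinning put the share of cells with a histone UMI at 96.8% for 4 markers and 68.8% for 0. The count of 54 members at least 2-fold higher was 54 under thinning, in T cells alone and under both doublet settings, alternatives chosen after seeing the data. In bulk, the median log2 ratio of −1.04 over 7 members became −1.63 with a pseudocount of 0.5 CPM, −0.61 with TMM scaling and −0.45 over the 22 members with at least 10 counts. TMM scaling moved the median of all genes by 0.14, gave 3 of 4 members still 2-fold lower and an overall ratio of 0.503, and put Hist1h2bc and the Hist2 cluster on the other side of 1, at 1.04 and 1.045. The count of 4 members was 4 under the other pseudocounts and level filters, and scaling without mitochondrial and the 100 most abundant genes gave a ratio of 0.461. The cause of these shifts was not tested. The main limits are 1 library per group, few bulk counts (384 in the library labelled KO and 552 in that labelled WT over all members) and near-identical members.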

Other observations

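The same genes can be read beside each other in both assays, though the assays were not scaled together and no comparison of levels between them was tested. The cells and mice differed too. Single cells were any activated CD4 T cells with a Foxp3 UMI, from mice with the reporter allele. Both bulk sorts took only cells positive for CXCR5 and PD-1 with high GITR. The 36 members of the bulk table held 2270 CPM in single T cells with a Foxp3 UMI, while in the bulk Tfr libraries they held 13.8 CPM (labelled KO) and 30.5 CPM (labelled WT). Of the 4 cell-cycle markers, Mki67 and Top2a did not show this gap. Mki67 was at 246 CPM in the single T cells with Foxp3, beside 367 CPM (labelled KO) and 373 CPM (labelled WT) in bulk, and Top2a at 302 CPM, beside 272 CPM (labelled KO) and 258 CPM (labelled WT). Birc5 was higher in the single cells, at 233 CPM, beside 23.3 CPM (labelled KO) and 22.1 CPM (labelled WT), as was Cdk1, at 105 CPM beside 29.95 CPM (labelled KO) and 20.9 CPM (labelled WT).

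The leading member also differed. Hist1h1b, first in the single cells, was at 657 CPM in T cells with Foxp3 and had 2 counts (labelled KO) and 4 counts (labelled WT) in bulk. Hist2h2be was at 2.74 CPM in those single cells and at 2.30 CPM (labelled KO) and 2.102 CPM (labelled WT) in bulk, and Hist3h2a at 11.1 CPM beside 1.04 CPM (labelled KO) and 0.553 CPM (labelled WT). Hist1h4d had 280 CPM in the single cells, beside 0.072 CPM (labelled KO) and 0.996 CPM (labelled WT) in bulk.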
